A study of Mus musculus with 23 samples.

Results

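The genes described here are 9 that carry or answer 2 signals which shape epithelia, TGF-beta and the coactivator YAP: Ccn1, Ccn2, Ankrd1, Amotl2, Tgif1, Smad7, Skil, Tgfb1 and Tgfb2. They were found by symbol among the 54393 mouse gene IDs of the deposited tables, and all 9 were among the 25829 genes that passed the low-count filter. RNA was sequenced from microdissected mouse connecting tubules and cortical collecting ducts, the last nephron segments, where aldosterone acts, in 4 groups. All mice, controls included, were Pax8-rtTA, TRE-LC-1, MRflox/flox. In such mice doxycycline switches on Cre in cells with an active Pax8 promoter, which includes the renal tubule, and Cre then cuts the floxed Nr3c2, the gene of the mineralocorticoid receptor. Knockout (KO) mice drank doxycycline at 2 mg/ml in 5% sucrose for 2 weeks and then had a washout of 2 weeks on a rescue diet, while control (CT) mice drank sucrose water free of the drug. Each group then spent 4 days on its diet: CT-NK (control, normal potassium, n = 5), CT-HK (control, high potassium, n = 6), KO-NK (knockout, normal potassium, n = 6) and KO-LK (knockout, low potassium, n = 6). Every knockout comparison is thus also one of doxycycline against none, and whether control mice ate the rescue diet is not stated in the labels. Age and sex are not given in the sources used here, nor is it stated that each library came from a separate mouse, so the p-values rest on a spread between libraries that may be technical.

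TGF-beta ligands (Tgfb1, Tgfb2) bind paired receptors that phosphorylate Smad2 and Smad3, and these enter the nucleus with Smad4 to switch on target genes. Among the targets are brakes on the pathway itself: Smad7 blocks and degrades the receptor, while Skil (SnoN) and Tgif1 repress Smad complexes on DNA. YAP is held in the cytoplasm by the Hippo kinases and, when released by spreading, stretch or injury, activates genes through TEAD proteins. Ccn1 (Cyr61), Ccn2 (CTGF), Ankrd1 and Amotl2 are its standard readouts, and Amotl2 in turn restrains YAP. In the kidney both signals are best known from tubular injury and fibrosis.

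Promoter sequences are shown for 5 members because both signals reach DNA through short motifs, and because these 5 differ in how they moved between the genotypes. RefSeq (GRCm38.p6) gave 10 transcription starts for 6 of the 9 members. Ccn2, Skil and Smad7 had no entry. Each window of 300 bases (250 before the start, 50 after) was searched on both strands for GGAATG (TEAD), CAGAC (SMAD), TGANTCA (AP-1), TGACGTCA (CRE), the CArG box of serum response factor and AGAACA (a half-site of steroid receptors). The lines give the 250 bases before the start, 5′ to 3′ on the gene's strand, with TEAD and SMAD matches on either strand in capitals. They cover chr3:145649986-145650235 (Ccn1, minus strand), chr9:102717554-102717803 (Amotl2, plus), chr19:36119845-36120094 (Ankrd1, minus), chr17:70853533-70853782 (Tgif1, minus, the most upstream of 5 starts) and chr1:186705990-186706239 (Tgfb2, minus).
Ccn1: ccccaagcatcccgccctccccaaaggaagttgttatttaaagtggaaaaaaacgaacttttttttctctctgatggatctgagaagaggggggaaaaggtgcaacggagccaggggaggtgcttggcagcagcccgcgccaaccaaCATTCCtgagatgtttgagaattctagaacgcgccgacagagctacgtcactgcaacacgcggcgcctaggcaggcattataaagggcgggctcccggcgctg
Amotl2: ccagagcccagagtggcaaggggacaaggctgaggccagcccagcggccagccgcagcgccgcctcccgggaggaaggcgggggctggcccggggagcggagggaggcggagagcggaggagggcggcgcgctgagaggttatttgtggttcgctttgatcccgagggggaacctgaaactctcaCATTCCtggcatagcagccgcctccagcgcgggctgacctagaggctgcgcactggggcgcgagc
Ankrd1: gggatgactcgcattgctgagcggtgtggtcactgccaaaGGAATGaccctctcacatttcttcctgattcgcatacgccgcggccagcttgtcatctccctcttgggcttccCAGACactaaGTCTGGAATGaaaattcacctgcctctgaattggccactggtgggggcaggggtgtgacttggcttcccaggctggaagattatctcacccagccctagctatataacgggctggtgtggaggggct
Tgif1: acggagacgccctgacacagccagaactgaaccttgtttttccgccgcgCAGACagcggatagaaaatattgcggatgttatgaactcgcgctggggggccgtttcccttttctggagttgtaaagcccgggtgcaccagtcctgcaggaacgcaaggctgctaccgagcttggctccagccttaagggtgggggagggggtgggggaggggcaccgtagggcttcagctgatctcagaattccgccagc
Tgfb2: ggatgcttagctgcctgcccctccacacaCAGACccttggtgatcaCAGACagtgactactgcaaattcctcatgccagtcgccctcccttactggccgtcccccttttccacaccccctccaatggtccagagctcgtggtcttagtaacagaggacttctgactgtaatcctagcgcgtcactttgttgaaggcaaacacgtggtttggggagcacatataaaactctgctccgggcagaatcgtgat
A TEAD match began 103 bases before the start of Ccn1 and 65 before that of Amotl2, and Ankrd1 held 2, at 210 and 123 bases before its start. Across all 32851 promoters of the table, 14.7% held this motif. The Tgif1, Tgfb1 and Tgfb2 windows held none. SMAD matches, which 49.6% of promoters hold, lay at 137 and 127 bases before the Ankrd1 start, where the second shares a base with a TEAD match, and at 221 and 204 before the Tgfb2 start. In Ccn1 the SMAD match lay just past the start, at base 4, outside the stretch shown. Of the 5 Tgif1 starts, 3 held a SMAD match. The AP-1 (7.81% of promoters), CRE (1.79%) and CArG (1.63%) motifs were in none of the members' windows, and AGAACA (18.97%) was in 1 window, that of the Tgif1 start 5. These are letter matches only.

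Libraries held 16158408 to 34154475 estimated counts. Nr3c2 itself ranged from 66.6 to 151 CPM (counts brought to 1 library size by TMM) in the controls and from 34.2 to 74.1 in the knockouts, a log2 fold change of -0.94 between genotypes (edgeR adjusted p = 0.000155); whether this whole-gene count covers mostly the floxed part was not tested. The labelled cells were checked by markers. Principal cell Aqp2 averaged 1959 to 3759 CPM by group and Slc26a4, of beta intercalated cells, 973 to 1429. Between the genotype means Aqp2 leaned lower (-0.70, edgeR adjusted p = 0.0521), while 11 of the 14 genes of its list leaned higher, with a median of 0.35. The alpha and beta intercalated lists had medians of 0.29 and 0.01, beside 0.09 over all genes tested. The summed connecting tubule list (9 genes) stood at 19788 to 63880 CPM in the controls and 5058 to 19323 in the knockouts with no overlap. Between the genotype means 3 of its genes (Klk1, S100g, Calb1), which carry most of the sum, were called lower. Of all genes tested, 10.5% were called there in either direction. Its other genes were not called there, and 1 of the 9 leaned higher. That was Trpv5, at 148 and 265 CPM in CT-NK and CT-HK and 236 and 360 in KO-NK and KO-LK. Tmem213 averaged 470 and 506 CPM in CT-NK and CT-HK and 436 and 389 in KO-NK and KO-LK. In KO-LK against CT-NK 1 gene of the list was called higher and 2 lower, where 0.914% of all genes were called higher and 2.04% in either direction. In bulk tissue, fewer cells of a type and less RNA per cell cannot be told apart. Of 20 proximal tubule markers, 6 were called lower between the genotype means and 0 higher, where 10.5% of all genes were called in either direction, with a median of -2.01. Their summed level ranged from 313 to 33423 CPM in the controls, highest in CT-HK replicate 6 (33423) and CT-NK replicates 5 (20516), 4 (9352) and 1 (7535), and from 446 to 6105 in the knockouts. Olfactory and vomeronasal receptor genes took over 2500 CPM in 5 libraries. Mitochondrial transcripts took 10.8 to 21.5% of control and 7.93 to 13.4% of knockout counts. The part of each of these in the results was not tested beyond the fits without the 2 libraries richest in proximal tubule markers, without the 5 receptor-rich ones and with proximal tubule and thick limb scores as covariates.

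Per transcript length, the 9 genes spanned a wide range of levels. Ccn1 was the most abundant, with a mean of 170 TPM (length-scaled transcript shares, as deposited) over all libraries, above 97.8% of the genes tested. Tgif1 followed at 33.1 TPM. Ccn2 (17.6 TPM) and Amotl2 (16.3) came next, then the brakes Smad7 (4.28) and Skil (3.61). Tgfb2 averaged 1.07 TPM, Tgfb1 0.892 and Ankrd1 0.369, the last with 0 to 51 estimated counts per library. Each gene's range over the 23 libraries overlapped that of its neighbour in this order.

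**Figure D1:**
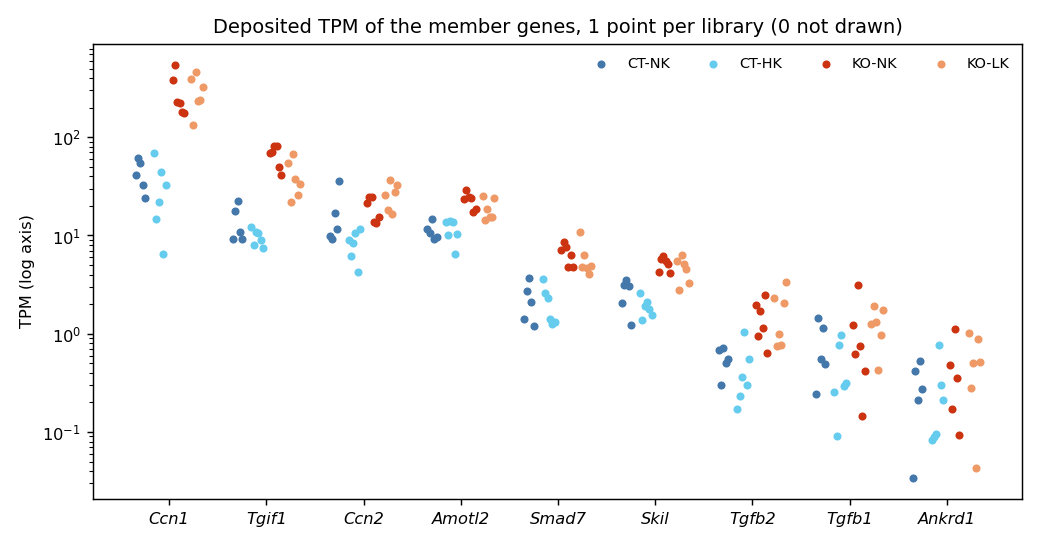
Deposited TPM (log axis) of the 9 genes, 1 point per library, coloured by group and ordered by mean level. Ccn1 lies highest at a mean of 170 TPM with both knockout groups above both control groups, and Ankrd1 lies lowest at 0.369.

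At matched diet, KO-NK against CT-NK, the knockout libraries held more Ccn1, Tgif1 and Smad7 transcript, and no member was called lower. These 3 of 9 members passed an adjusted p of 0.05 (edgeR quasi-likelihood F test over all 25829 genes) as higher, where 0.937% of all genes tested did and 1.7% passed in either direction. The members' median log2 fold change was 0.68, against 0.15 over all genes tested. In the same 3 genes all 6 KO-NK libraries exceeded all 5 CT-NK libraries, a separation that 1.14% of all genes showed. With DESeq2, and with limma on log2(TPM + 1), 5 members were called higher, Amotl2 and Skil being the additions. Calls over all genes, 439 in the reported fit, ran from 186 to 3068 across the alternatives, the highest with limma on TPM. The number of members called was 2 with no filter, with segment scores as covariates and with only the groups compared. It was also 2 without the receptor-rich libraries and without the 2 libraries richest in proximal tubule markers. The call of Smad7 was lost under 12 of 22 alternatives. Of all genes called by edgeR 55.1% were higher, but 95.6% of those called by limma on TPM, used without TMM scaling.

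The other knockout comparisons differ in diet as well as genotype, and all but KO-LK against CT-HK share groups with the first. All rest on 1 fit of the 23 libraries, so they share its estimate of spread. In KO-LK against CT-NK, 2 members (Ccn1, Tgif1) were called higher, where 0.914% of all genes were (2.04% in either direction), and Ccn1 alone had no overlap (1.01% of all genes). In KO-NK against CT-HK 4 were (Ccn1, Smad7, Skil, Tgif1; 2.46% of all genes, and 5.78% in either direction), each of them with no overlap (2.05% of all genes). KO-LK against CT-HK, which shares no library with KO-NK against CT-NK, called 6 (the same 4 with Ccn2 and Tgfb2; 2.2% of all genes, and 5.49% in either direction). Of these 6, Ccn1, Tgif1 and Tgfb2 had no overlap (1.66% of all genes). Against the mean of both control groups, the mean of both knockout groups was higher for 5 members, Ccn1, Tgif1, Smad7, Skil and Tgfb2, where 4.67% of all genes were called higher and 10.5% in either direction. The median over the members was 0.74 there, and 0.09 over all genes tested. No member was called lower in any of the 7 comparisons. Of the genes edgeR called, 44.7%, 42.6%, 40.1% and 44.4% were higher in these 4 comparisons in turn, and 95.6%, 97.0%, 96.8% and 95.9% of those limma called on log2(TPM + 1), where 6, 7, 7 and 7 members were higher. On that scale the median of all genes tested in KO-LK against CT-HK was 0.23 in place of -0.01. Over all genes, limma on TPM called up to 4361, 5643, 6951 and 8266 in these 4 comparisons in turn. EdgeR called 528, 1494, 1418 and 2721.

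Ccn1 (ENSMUSG00000028195, chr3:145646976-145649981 of GRCm38, minus strand) encodes a secreted matrix protein that cells make soon after stretch or serum. The 5 CT-NK libraries held 127, 122, 135, 71.4 and 66.9 CPM. In CT-HK it ranged from 19.97 to 202 CPM with a median of 76.7. KO-NK ranged from 361 to 1260 with a median of 411, and KO-LK from 270 to 855 with a median of 536. Every one of the 12 knockout libraries was above every one of the 11 control libraries, a separation that 0.248% of all genes tested showed. The group means were 104 ± 32.6 (SD, n = 5), 87.3 ± 63.1 (n = 6), 581 ± 353 (n = 6) and 564 ± 197 (n = 6) CPM. The log2 fold change was 2.48 in KO-NK against CT-NK (SE 0.45, edgeR adjusted p = 0.00385), 2.69 in KO-LK against CT-HK (adjusted p = 3e-04) and 2.58 between the genotype means (SE 0.31, adjusted p = 5.09e-06), 6.00-fold. It was called under all 33 alternatives to the last of these.

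Ccn2 (ENSMUSG00000019997, chr10:24595442-24598683, plus strand), the close relative of Ccn1 and the YAP and TGF-beta target most used as a fibrosis readout, did not separate the genotypes. The CT-NK libraries held 32.3, 18.8, 50.6, 28.2 and 107 CPM, the last being replicate 5, one of the 2 libraries richest in proximal tubule transcripts. That library also had the highest fibroblast, pericyte and smooth muscle sum of all libraries, 429 CPM, against 28.6 to 66.1 in the other CT-NK libraries. Its summed podocyte list (8 genes) stood at 340 CPM, against 50.2 to 69.7 in them. The part of these cells in its Ccn2 level was not tested. CT-HK held 16.2 to 39.9 CPM (median 26.6), KO-NK 29.5 to 67.4 (median 39.7) and KO-LK 37.4 to 79.2 (median 58.1). None of the 12 knockout libraries exceeded the highest control, and the groups overlapped in each comparison. KO-NK against CT-NK gave -0.18 with a 95% interval of -0.87 to 0.50, and turned to 0.35 without CT-NK replicate 5; neither was called. KO-LK against CT-HK gave 1.09 (SE 0.32, edgeR adjusted p = 0.0461), the one call for Ccn2, which was lost under 11 of 23 alternatives. Between the genotype means it was 0.45 (adjusted p = 0.273), and 0.72 (adjusted p = 0.0199) without CT-NK replicate 5.

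Ankrd1 (ENSMUSG00000024803, chr19:36111961-36120099, minus strand), a nuclear and sarcomeric protein induced by YAP in many epithelia, was at the limit of detection. Its CT-NK libraries held 0.0928, 0.738, 0.48, 1.05 and 0.694 CPM. The other groups ranged from 0.202 to 1.39 (CT-HK, median 0.414), 0 to 1.67 (KO-NK, median 0.478) and 0.0763 to 1.81 (KO-LK, median 0.814), with full overlap. The difference between genotype means was 0.34 with an interval of -0.80 to 1.47 (edgeR adjusted p = 0.88), an interval that runs from below no change to more than a doubling.

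Amotl2 (ENSMUSG00000032531, chr9:102716672-102733418, plus strand), a junction protein that binds YAP, did not pass the threshold in any comparison. The CT-NK libraries held 65.0, 40.3, 62.8, 35.9 and 42.7 CPM, and CT-HK held 36.5 to 72.3 (median 55.0). KO-NK held 61.9 to 124 CPM (median 72.1) and KO-LK 52.3 to 68.0 (median 60.1). Of the 6 KO-NK libraries 3 were above every control, and the KO-LK libraries lay within the controls' range. KO-NK against CT-NK gave 0.68 (interval 0.28 to 1.09, edgeR adjusted p = 0.0809, and 0.0169 with DESeq2), and KO-LK against CT-HK 0.10 (interval -0.28 to 0.48). Between the genotype means it was 0.39 (adjusted p = 0.0655), a value past the threshold under 18 of 33 alternatives.

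**Figure D2:**
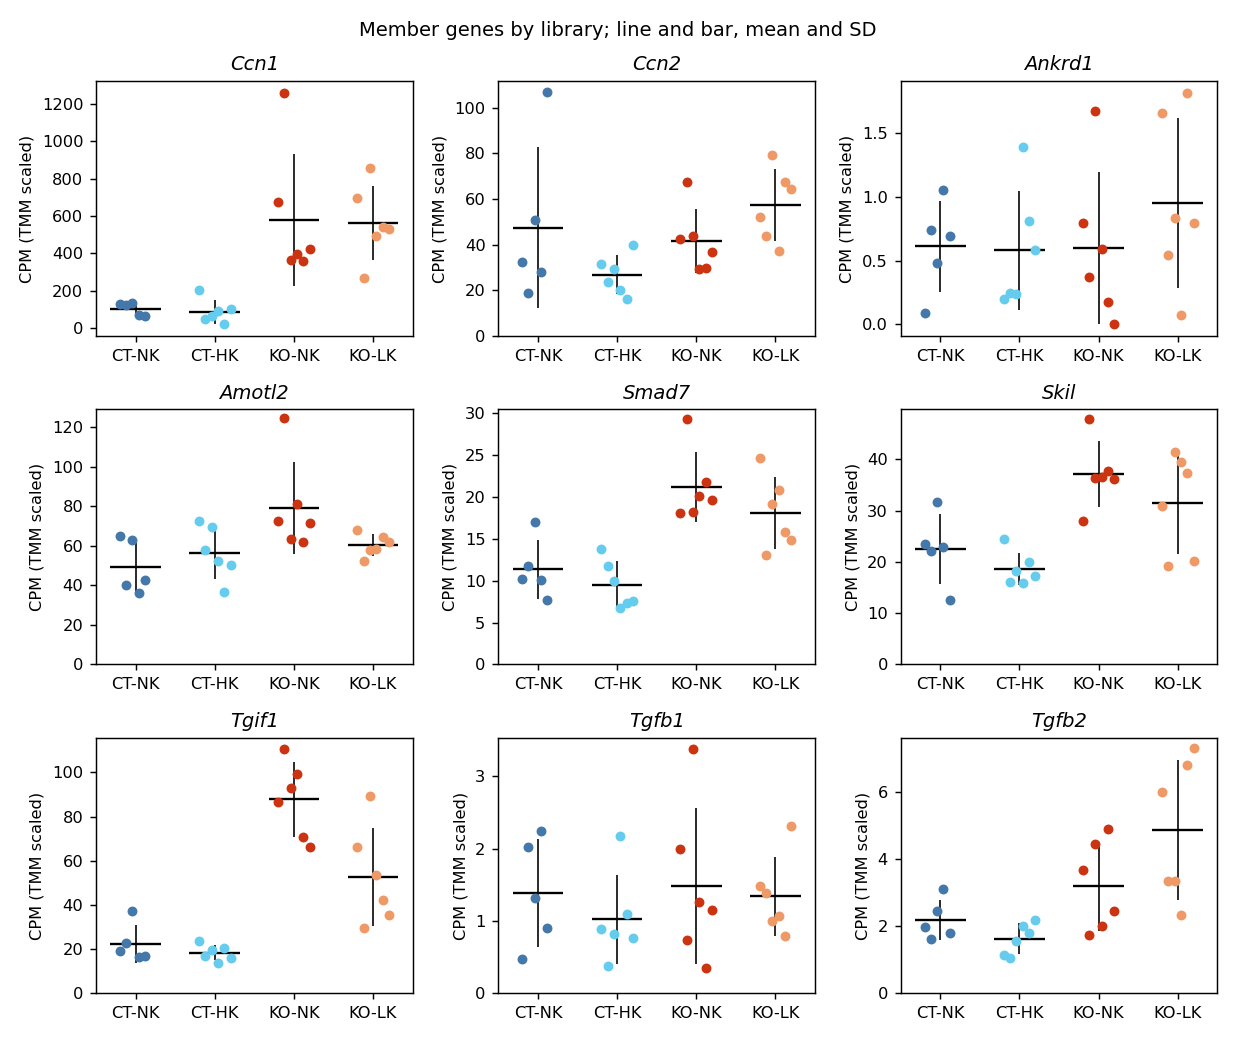
CPM (TMM scaled, linear axes from 0) of each gene by group, 1 point per library, with the mean as a horizontal line and the SD as a bar. All 12 knockout points of Ccn1 lie above all 11 control points, while the points of Ccn2, Ankrd1 and Tgfb1 overlap between genotypes.

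Tgif1 (ENSMUSG00000047407, chr17:70844205-70853546, minus strand), a homeodomain corepressor of Smad2 and Smad3 complexes, moved most of the 3 member brakes. CT-NK libraries held 19.2, 22.5, 37.2, 16.2 and 16.9 CPM, and CT-HK libraries 13.6 to 23.5 (median 18.1). KO-NK libraries held 66.2 to 111 CPM (median 89.7) and KO-LK libraries 29.5 to 89.3 (median 47.8). All KO-NK libraries and all but 2 KO-LK libraries were above every control, so 10 of 12 in all. KO-NK against CT-NK gave 1.97 (SE 0.26, edgeR adjusted p = 0.000307), the eighth smallest p of all genes tested. KO-LK against CT-HK gave 1.53 (adjusted p = 0.000282), and the genotype means differed by 1.75 (SE 0.18, adjusted p = 5.22e-07), 3.36-fold. In KO-LK against CT-NK the value of 1.23 (adjusted p = 0.00913) fell short with proximal tubule and thick limb scores as covariates (1.00, adjusted p = 0.175) and without the 5 receptor-rich libraries (0.89, adjusted p = 0.065).

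Smad7 (ENSMUSG00000025880, chr18:75367529-75395935, plus strand), the inhibitory Smad, measured 10.2, 11.8, 17.0, 10.1 and 7.69 CPM in the CT-NK libraries, with 6.73 to 13.7 in CT-HK (median 8.78). It reached 18.1 to 29.3 CPM in KO-NK (median 19.9) and 13.0 to 24.6 in KO-LK (median 17.5). All KO-NK libraries were above all controls, and KO-LK overlapped the highest controls. The genotype means differed by 0.91 (SE 0.15, edgeR adjusted p = 0.000264), 1.88-fold. KO-NK against CT-NK gave 0.90 (SE 0.22, adjusted p = 0.0381), a call lost under 12 of 22 alternatives, at an adjusted p of 0.145 without CT-NK replicate 5 and 0.0736 without KO-NK replicate 2. KO-LK against CT-HK gave 0.92 (adjusted p = 0.00836).

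Skil (ENSMUSG00000027660, chr3:31095058-31122577, plus strand), which encodes SnoN, measured 23.5, 22.2, 31.7, 22.8 and 12.5 CPM in the CT-NK libraries, with 15.9 to 24.4 in CT-HK (median 17.7). KO-NK libraries held 27.9 to 47.9 CPM (median 36.5) and KO-LK libraries 19.1 to 41.5 (median 34.2). It separated KO-NK from CT-HK without overlap, but 1 KO-NK library lay below the highest CT-NK library. The genotype means differed by 0.74 (SE 0.15, edgeR adjusted p = 0.00197), 1.66-fold. At matched diet it was 0.72 (interval 0.26 to 1.17, adjusted p = 0.107), and DESeq2 gave an adjusted p of 0.0318 for it. KO-LK against CT-HK gave 0.75 (adjusted p = 0.0312), lost under 8 of 23 alternatives.

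Of the ligands, Tgfb2 (ENSMUSG00000039239, chr1:186622792-186705989, minus strand) was higher in the knockouts and Tgfb1 (ENSMUSG00000002603, chr7:25687002-25705077, plus strand) was not called. Tgfb2 measured 1.95, 1.60, 2.44, 3.11 and 1.79 CPM in the CT-NK libraries, with 1.03 to 2.18 in CT-HK (median 1.67). It ranged from 1.72 to 4.87 CPM in KO-NK (median 3.04) and from 2.33 to 7.29 in KO-LK (median 4.67). KO-LK lay above all CT-HK libraries, and 3 of its libraries held more than any of the other 3 groups. The genotype means differed by 1.07 (SE 0.24, edgeR adjusted p = 0.00422), 2.10-fold, and KO-LK against CT-HK by 1.59 (adjusted p = 0.00405). At matched diet the difference was 0.55 with an interval of -0.16 to 1.26 (adjusted p = 0.631). Tgfb1 measured 0.464, 2.03, 1.32, 2.24 and 0.893 CPM in the CT-NK libraries, 0.372 to 2.17 in CT-HK, 0.348 to 3.38 in KO-NK and 0.783 to 2.32 in KO-LK, with complete overlap. Its genotype means differed by 0.24 (interval -0.49 to 0.97, adjusted p = 0.862) on 8 to 82 counts per library.

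Diet alone moved none of the 9 genes past the threshold. High against normal potassium in controls (CT-HK against CT-NK) gave 0 members and 0 of all genes (0%; 927 at an unadjusted p under 0.05, and 17 by DESeq2), and normal against low potassium in knockouts (KO-NK against KO-LK) likewise 0 members and 0 genes (0%; 732 unadjusted, 24 by DESeq2). Among the members, 1 of 9 had an unadjusted p under 0.05 in controls: Ccn2, at -0.82 (interval -1.51 to -0.13, edgeR adjusted p = 1), and at -0.27 (adjusted p = 1) without CT-NK replicate 5. In knockouts 2 did. Tgif1 was 0.74 higher on normal than on low potassium (interval 0.25 to 1.23, edgeR adjusted p = 0.928), with means of 87.7 ± 17.0 and 52.7 ± 22.3 CPM (SD, n = 6 each). Amotl2 was 0.39 higher (interval 0.01 to 0.77, adjusted p = 0.928), and 0.17 (adjusted p = 0.803) without KO-NK replicate 2. Tgfb2 leaned the other way at -0.61 (interval -1.28 to 0.06). The intervals of Ccn1, -0.79 to 0.87 in knockouts and -1.13 to 0.61 in controls, both include 0.

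**Figure D3:**
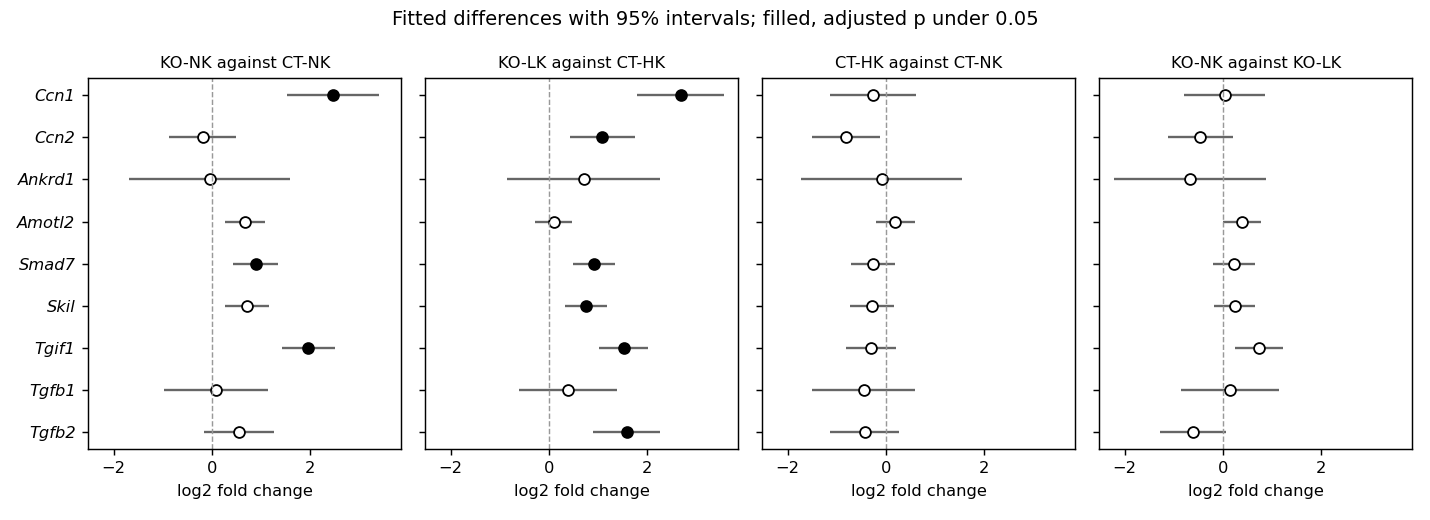
Fitted log2 fold changes with 95% intervals of the 9 genes in 4 comparisons, filled where the adjusted p is under 0.05. Ccn1, Smad7 and Tgif1 are filled in both knockout panels on the left, and no gene is filled in the diet panels on the right.

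The wider TGF-beta pathway was compared between the genotype means, where diets are not matched and 4.67% of all genes tested were called higher and 10.5% in either direction. Of 16 tested genes of ligands and their activation, 2 were called higher and 0 lower: Gdf15, a stress-induced family member (3.03), and Itgb6, the integrin subunit that frees latent TGF-beta (1.29, from 48.5 and 39.7 CPM in CT-NK and CT-HK to 92.6 and 125 in KO-NK and KO-LK). The ligand Gdf11 (0.80, edgeR adjusted p = 0.0838) and the activin subunit Inhbb (1.22, adjusted p = 0.11) were not called. Of 12 receptors and signal-carrying Smads 1 rose, Smad3 (0.48, edgeR adjusted p = 0.0455). Tgfbr2, the type II receptor, gave 0.33 (adjusted p = 0.0742), its coreceptor Tgfbr3 0.28 (adjusted p = 0.199) and Tgfbrap1 -0.33 (adjusted p = 0.0712), and none of these was called. Of 12 further inhibitors 1 rose, Tgif2, the paralog of Tgif1 (2.69, adjusted p = 9.22e-07), from 1.48 to 8.53 CPM between CT-NK and KO-NK. The ubiquitin ligases Wwp1 (-0.36, adjusted p = 0.0657), Trim33 (0.32, adjusted p = 0.235) and Nedd4 (0.19, adjusted p = 0.348) were not called. Medians of the 3 lists were 0.24, 0.14 and 0.12, beside 0.09 over all genes tested.

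Classic TGF-beta targets were called in 4 of 21 tested cases, all higher, between the genotype means, where 4.67% of all genes were called higher: the cell cycle inhibitor Cdkn2b (1.70), the basement membrane collagen Col4a1 (0.72), the urokinase receptor Plaur (0.85) and the Notch ligand Jag1 (0.58). The median of the list was 0.07, beside 0.09 over all genes tested. The BMP arm, which signals through Smad1 and Smad5, had 7 of 19 higher and 0 lower, with a median of 0.22. Its target genes Id3 (0.91) and Id2 (0.62), the secreted BMP antagonist Grem1 (1.92) and the transducer Smad5 (0.45) were among them.

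On the YAP side, in the same comparison and against the same 4.67% of all genes higher and 10.5% in either direction, the Hippo core held 1 call among 23 tested genes, the upstream regulator Frmd6 (0.45, edgeR adjusted p = 0.0475), with a median of 0.11. Nf2, which activates the kinases, gave -0.36 (adjusted p = 0.11), and the upstream kinases Taok1 and Map4k4 gave 0.34 (adjusted p = 0.0953) and 0.29 (adjusted p = 0.179). Of 26 other tested YAP targets, 10 were called higher and 0 lower, with a median of 0.20. The largest of those named were the stress sensor Gadd45b (2.55), the vasoactive peptide Edn1 (2.13) and the kinase Nuak2 (1.97), and Ptpn14, a phosphatase that restrains YAP, gave 0.72. Nuak2 averaged 113 and 145 CPM in CT-NK and CT-HK and 477 and 532 in KO-NK and KO-LK. The other 3 tested CCN genes had no call: Ccn3 gave 1.45 (adjusted p = 0.0644), Ccn4 -0.56 and Ccn5 -0.49, at group means under 5 CPM. Genes of the actin cytoskeleton and its factor Srf, which shares targets with YAP, had 9 of 16 higher and 0 lower, with a median of 0.40, among them Srf (1.24), Flna (1.01), Vcl (0.92) and Actb (0.87).

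At matched diet (KO-NK against CT-NK) all calls in these lists were higher, where 0.937% of all genes tested were called higher and 1.7% in either direction. The ligand list had 1 (Itgb6), the inhibitors 1 (Tgif2), the TGF-beta targets 1 (Cdkn2b), the YAP targets 4 (Gadd45b, Ptpn14, Nuak2, Edn1) and the actin list 2 (Srf, Vcl). The receptor, BMP, Hippo and other CCN lists had 0.

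**Figure D4:**
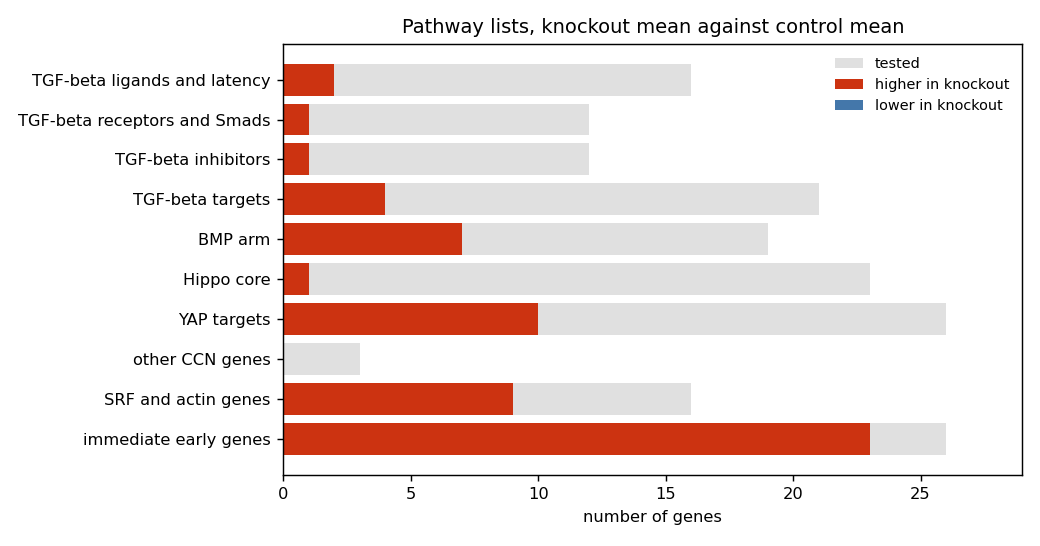
Number of genes per list, compared between the 2 genotype means: grey bars are genes tested and red bars genes called higher at an adjusted p under 0.05, and no gene of these lists was called lower. The immediate early list has 23 of 26 called and the Hippo core 1 of 23. Of all genes tested, 4.67% were called higher and 10.5% in either direction.

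Immediate early genes, transcription factors and feedback enzymes that rise quickly after many stimuli, tissue handling among them, were mostly higher in the knockouts. Of 26 tested, 23 were called higher between the genotype means and 0 lower, with a median of 1.68. Of all genes tested, 4.67% were called higher there and 10.5% in either direction. At matched diet 12 were called higher, where 0.937% of all genes were and 1.7% were called in either direction. Myc gave 4.25, Egr2 2.81, Fos 2.14 and Ier5 1.68. The summed level of the whole list was 1770 to 8836 CPM in CT-NK (median 7778), 1961 to 7533 in CT-HK (median 4052), 16186 to 24785 in KO-NK (median 17776) and 10907 to 18623 in KO-LK (median 15516). It did not overlap between genotypes, with the knockouts higher, as 0.248% of all genes tested did singly. KO-NK replicate 2 had the highest sum, 24785 CPM, and the highest Ccn1, Amotl2, Smad7, Skil and Tgif1 of all libraries. KO-LK replicate 2 had the lowest sum of the knockouts, 10907 CPM, and their lowest Ccn1, Amotl2, Smad7, Skil and Tgif1. Tgfb2 did not follow, with 1.72 CPM in KO-NK replicate 2, the lowest of the knockouts. Among the controls the sum was largest in CT-NK replicate 1. There Tgif1, Smad7 and Skil were highest in CT-NK replicate 3, and Ccn1 and Amotl2 in CT-HK replicate 1. Since the sum separates the genotypes completely, what it shares with the members and what belongs to the genotype cannot be told apart. Such a separation was not particular to this list. The summed list of TGF-beta ligands and their activation held 419 to 1109 CPM in controls and 1697 to 3332 in knockouts. That of the other YAP targets held 770 to 1220 and 1379 to 2446.

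**Figure D5:**
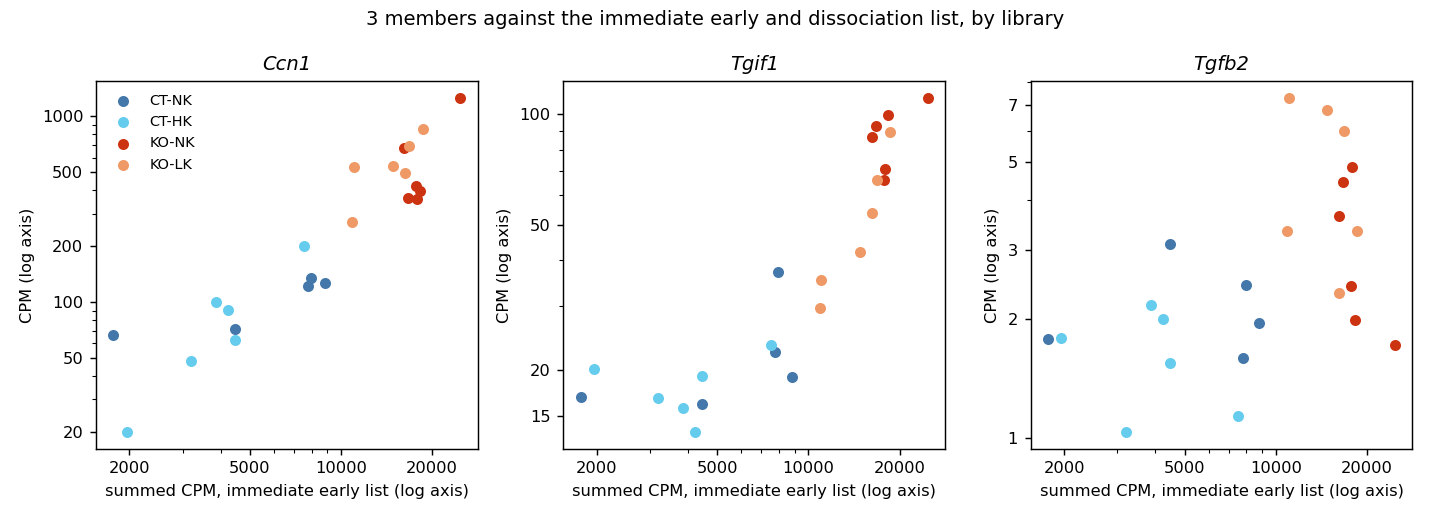
CPM of Ccn1, Tgif1 and Tgfb2 (log axis) against the summed CPM of the whole immediate early list (log axis), 1 point per library, coloured by group. Knockout libraries lie at 10907 summed CPM and above and control libraries at 8836 and below, with Ccn1 and Tgif1 highest in the library of the largest sum and Tgfb2 lowest of the knockouts there.

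Markers of interstitial, endothelial and blood cells were examined beside the members. None was called higher between the genotype means, where 4.67% of all genes tested were. The summed fibroblast, pericyte and smooth muscle list (15 genes, all tested) ranged from 26.3 to 429 CPM in the controls and from 16.4 to 230 in the knockouts. It was highest in CT-NK replicate 5 and KO-LK replicate 6. Of its genes 1 was called between the genotype means, Dcn, lower at -1.08, where 10.5% of all genes tested were called in either direction. The endothelial list ranged from 186 to 642 CPM in controls and 294 to 670 in knockouts, and the leukocyte list from 95.4 to 357 and 78.4 to 303. Neither had a call. The most abundant of these markers were present in all groups: by group mean, Ren1 at 10.8 to 53.6 CPM and Dcn at 5.59 to 24.7, the endothelial Plvap at 122 to 158 and Emcn at 55.7 to 64.1, and the leukocyte C1qb at 27.0 to 46.8 and Lyz2 at 21.1 to 44.0. Their part in the results of the 9 genes was not tested.

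The genes whose levels ran most like each member were sought by Pearson's r of log2 CPM over the 23 libraries, among the 10593 or 10594 genes (other than the member) with a mean of at least 5 CPM. These values include the difference between genotypes, and the libraries share depth and scaling. Closest to Ccn1 were Jun (0.934), Btg2 (0.933) and Ppp1r15a (0.932). Closest to Tgif1 were Gem (0.972), Irf1 (0.959) and Mob3a (0.955), closest to Smad7 Sdc4 (0.954), Mcl1 (0.944) and Klf6 (0.936), and closest to Skil Ccnl1 (0.942), Paxbp1 (0.927) and Zfand5 (0.921). Ccn2 had looser partners, Plaur (0.744), Flna (0.734) and Zyx (0.715), of which the last 2 encode actin-associated proteins. Amotl2 ran with Kit (0.864) and Rab11fip1 (0.858). The top partners of Tgfb2 were Anxa9 (0.769), Tgfa (0.761) and Stc1 (0.749), those of Tgfb1 Ccdc167 (0.855), Sag (0.854) and Dlg4 (0.849), and those of Ankrd1 Prim2 (0.717) and Pvt1 (0.701). Tgfb1 (8 to 82 counts) and Ankrd1 (0 to 51) had few counts per library. Tgfb1 was highest, 3.38 CPM, in KO-NK replicate 3, the library with the most olfactory and vomeronasal receptor transcript (6826 CPM). It was lowest, 0.348 CPM, in KO-NK replicate 5 (1243 receptor CPM). The part of this library trait in these values was not tested.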

How the data were processed

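Salmon quantified the reads against GRCm38.p6, per the submitters' processing notes, with its version listed as 0.14.10. The authors gave 2 tables: gene-level expected counts (35.9% of them not whole numbers) and TPM, in which each gene is scaled by its length. Genes were matched by Ensembl ID to GENCODE symbols and coordinates. Totals were 16158408 to 34154475 per library, no 2 of the 55 library pairs within groups were identical, and none was left out of the reported fit.

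After rounding, the expected counts went into edgeR 4.0.16 under R 4.3.3. Genes were filtered by filterByExpr, libraries scaled by TMM, and each of the 4 groups given its own mean in 1 fit of all 23 libraries. Quasi-likelihood F tests were adjusted by Benjamini-Hochberg over the 25829 genes kept. Called means an adjusted p under 0.05. All adjusted p-values come from this fit unless DESeq2 1.42.0 or limma 3.58.1 is named, and differences are log2 fold changes with 95% intervals. CPM are TMM scaled. The common biological coefficient of variation was 0.563 on 19 residual degrees of freedom. The pipeline was tested on simulated counts.

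The members and gene lists were chosen with earlier results of these data known. Beside all 9 members, the text names up to 4 genes of smallest p per pathway list, up to 2 of the most abundant markers per marker list it describes, the 3 genes most like each member, and genes behind counts of 5 or fewer. Of the genes this rule selects, 2 are not reported here.

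Alternatives were DESeq2, its size factors in edgeR, no filter, limma on log2(TPM + 1) and log2(TPM + 0.1), a replicate block, proximal tubule and thick limb scores as covariates, only the groups compared, a transcript length offset, and fits without receptor-rich libraries, without the 2 richest in proximal tubule markers and without each library. The TPM given to limma were the deposited values, with no TMM scaling between libraries.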

Additional observations from a re-analysis of the deposited data

Results flagged for a closer look

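In 3 of 36 sets of values (a member in a group of 6 libraries, or in the 5 of CT-NK), 1 library lay far from the rest of its group by Dixon's ratio, above the critical value of 0.625 for 6 libraries. Chance gives about 1 in 20. All 3 were KO-NK replicate 2, at its highest. Ccn1 stood at 1260 CPM there, with 677 next (ratio 0.649). Amotl2 stood at 124 CPM, with 81.1 next (0.693), and Smad7 at 29.3 CPM, with 21.8 next (0.672). Without that library, KO-NK against CT-NK gave 2.07 for Ccn1 (edgeR adjusted p = 0.011), 0.50 for Amotl2 (adjusted p = 0.0966) and 0.76 for Smad7 (adjusted p = 0.0736).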

How the results depend on the processing

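Under the alternatives the members called higher changed more in number than in direction. Of 1512 alternative values of single members, 1360 kept direction and side of the threshold, 33 were no longer called, 53 became called and 66 changed sign, the last with no call on either side. Ccn1 was called in every knockout comparison under all alternatives run, and Smad7, Skil, Tgif1 and Tgfb2 between the genotype means. In KO-NK against CT-NK, 3 members were called in the reported fit, 5 with DESeq2, 5 with limma on log2(TPM + 1), 5 on log2(TPM + 0.1), 2 to 4 without 1 library, and 2 each with no filter, with segment covariates, with only the groups compared, without the receptor-rich libraries and without the 2 richest in proximal tubule transcripts. In KO-LK against CT-NK, 2 were called as reported, 6 with limma at both pseudocounts, 1 with proximal tubule and thick limb scores as covariates, 1 without the libraries above 2500 receptor CPM and 2 to 3 without 1 library. In KO-NK against CT-HK, 4 were called as reported, 7 with limma at both pseudocounts and 4 to 5 without 1 library. The causes were not tested. Without 1 library, KO-LK against CT-HK held 4 to 6 and the genotype means 5 to 6. Both diet comparisons had 0 under all alternatives.

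Over all genes, the 439 calls of KO-NK against CT-NK became 186 to 3068, the 528 of KO-LK against CT-NK 145 to 4361, the 1494 of KO-NK against CT-HK 799 to 5643, the 1418 of KO-LK against CT-HK 825 to 6951 and the 2721 between the genotype means 1692 to 8266, the highest with limma on TPM in each. CT-HK against CT-NK had 169 without CT-HK replicate 6, and KO-NK against CT-NK 233 without CT-NK replicate 5 and 919 without KO-NK replicate 3. In KO-LK against CT-NK 26.1% of calls were higher without the receptor-rich libraries, against 44.7%. With a transcript length offset the higher share was 56.0% in KO-LK against CT-HK and 55.1% in KO-LK against CT-NK, and with only the groups compared 62.0% in KO-LK against CT-HK and 58.5% in KO-NK against CT-HK.

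Replicate numbers did not pair the libraries: of 33 correlations between same-numbered libraries 10 were over 0.1 (range -0.70 to 0.713), and 0 of 23 libraries matched its own number best. With a replicate block the members called were 3 in KO-NK against CT-NK, 2 in KO-LK against CT-NK, 4 in KO-NK against CT-HK, 4 in KO-LK against CT-HK, 5 between the genotype means and 0 in the diet comparisons.

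Sign changes touched only values reported between -0.26 and 0.28, mostly of Ankrd1 and Tgfb1, whose low counts limit them. Ccn2 in KO-NK against CT-NK, -0.18 as reported, was 0.30 and 0.32 with limma at the 2 pseudocounts, 0.024 with segment covariates, 0.35 without the 2 libraries richest in proximal tubule transcripts and from -0.44 to 0.35 without 1 library, the highest without CT-NK replicate 5, and in KO-LK against CT-NK it was -0.0005 without the receptor-rich libraries. Ankrd1 in KO-NK against CT-NK was 0.050 with limma on log2(TPM + 1), 0.0033 without the 2 libraries richest in proximal tubule transcripts and -0.73 to 0.23 without 1 library. In KO-NK against CT-HK it was -0.0066 with DESeq2, -0.0067 with its size factors, -0.050 with no filter, -0.050 with the block, -0.11 with the length offset, -0.58 without the receptor-rich libraries and -0.55 to 0.52 without 1 library, and in CT-HK against CT-NK -0.55 to 0.20 without 1 library. Tgfb1 in KO-NK against CT-NK was -0.023 with the block, -0.10 with the length offset, -0.51 without the receptor-rich libraries, -0.042 without the 2 richest in proximal tubule transcripts and -0.40 to 0.31 without 1 library. In KO-NK against KO-LK it was -0.24 and -0.60 with limma, -0.52 with the length offset, -0.71 without the receptor-rich libraries and -0.33 to 0.27 without 1 library. In KO-LK against CT-NK it was 0.36 and 0.72 with limma, 0.42 with the length offset, 0.20 without the receptor-rich libraries and -0.32 to 0.18 without 1 library. Ccn1 in KO-NK against KO-LK was -0.060 at both pseudocounts, -0.045 with the block, -0.37 with segment covariates, -0.033 with the length offset and -0.41 to 0.15 without 1 library. Smad7 in CT-HK against CT-NK was 0.069 with the length offset.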

Other observations

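On the deposited TPM scale the ratio of knockout to control means was larger than the fold from counts for all 9 members: 7.99 against 6.00 for Ccn1, 4.53 against 3.36 for Tgif1, 3.23 against 2.10 for Tgfb2, 2.88 against 1.88 for Smad7, 2.20 against 1.66 for Skil, 1.86 against 1.37 for Ccn2 and 1.84 against 1.31 for Amotl2. Tgfb1 gave 1.94 against 1.18 and Ankrd1 1.67 against 1.26. Nr3c2 gave -0.16 between the genotype means with limma on log2(TPM + 1) (adjusted p = 0.439), beside -0.94 from counts and -0.59 with a transcript length offset. Counts were TMM scaled in the fit, while the deposited TPM were taken without such scaling. Mean TMM factors were 0.966 and 0.887 in CT-NK and CT-HK and 1.09 and 1.10 in KO-NK and KO-LK. The part of this and of other differences between the 2 scales was not tested.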
